A study of Zea mays with 12 samples.

Results

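The genes described here are 6 regulators of shoot meristem size and identity in maize, taken from a table of 39324 gene IDs by their B73 version 4 identifiers. They are kn1 (Zm00001d033859), td1 (Zm00001d014793), fea2 (Zm00001d051012), fea3 (Zm00001d040130), fea4 (Zm00001d037317) and ct2 (Zm00001d027886). The identifiers carry no gene names in the deposited table, so the pairing of ID and symbol is the one given with the choice of genes. All 6 passed the expression filter and were among the 22772 genes tested. RNA was sequenced, with strand kept, from shoot apices of maize inbred line B104 dissected after 7 days of germination, each holding the shoot apical meristem (SAM), the leaf primordia of plastochrons P0 to P5 (counted from the youngest outward) and leaf sheath. The tml1;tml2 group (MT2, MT3 and MT4) was homozygous for loss-of-function alleles of both TOO MANY LATERALS genes, made by CRISPR/Cas9 editing and segregated away from the transgene. The wild-type group (WT2, WT3 and WT4) consisted of segregants from the same edited material, chosen by genotyping seed chips. The 2 sequencing runs of a sample were added together. The labels name 3 individual apices per genotype pool, and whether a sample is 1 apex or part of a pool cannot be told apart from that wording. If the samples are not separate plants, the p-values below measure only the spread between these samples.

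The shoot meristem keeps a pool of undifferentiated cells while it gives off leaves at its flank. The homeodomain protein KNOTTED1 marks and maintains that undifferentiated state, and its transcript is found in meristem and stem but is switched off where a leaf starts. Meristem size is held in check by CLAVATA-type signalling, in which small secreted peptides are sensed by leucine-rich-repeat receptors that restrain the stem cell factor WUSCHEL. In maize, td1 encodes the receptor kinase related to Arabidopsis CLAVATA1, fea2 the receptor-like protein related to CLAVATA2, and fea3 a further receptor-like protein that senses a peptide signal coming from the leaf primordia. The gene ct2 encodes the alpha subunit of the heterotrimeric G protein that acts with FEA2, and fea4 encodes a bZIP transcription factor related to Arabidopsis PERIANTHIA. Maize mutants in td1, fea2, fea3, fea4 and ct2 have enlarged meristems or fasciated ears.

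The samples held 27213052 to 29968419 estimated counts in tml1;tml2 and 29504680 to 31980536 in wild type. On the first principal component of all genes, which held 46.0% of the variance, MT4 stood farthest out at 116, against −84.0 to 26.2 for the other 5 samples, so values that rest on MT4 are also given without it. In bulk tissue, fewer cells of a type and less RNA per cell cannot be told apart. None of the other 54 pathway and tissue marker genes listed by symbol could be paired with an ID of the files (0 of 54), so neither the edited TML genes nor markers of leaf, ligule or vein were analysed here. The genotype of each sample therefore rests on its label.

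All 6 transcripts were detected in every sample, and their mean levels per transcript length ran from 3.64 to 31.8 TPM. Levels between genes are given as TPM, a relative abundance corrected for transcript length, averaged over the 2 runs. The G protein subunit gene ct2 was the most abundant, at 31.8 TPM over the 6 samples, which lay above 74.2% of the tested genes. The receptor gene fea3 followed at 15.8 TPM, above 54.8% of them. The remaining members lay in the lower part of the range, with fea2 at 6.65 TPM, kn1 at 6.07 TPM, fea4 at 4.52 TPM and td1 at 3.64 TPM, above 32.1%, 30.3%, 24.8% and 21.2% of tested genes in that order. Within samples, ct2 exceeded fea3 in 6 of 6, and fea3 exceeded fea2 in 5 of 6, the exception being MT4 with 5.13 TPM of fea3 and 7.38 TPM of fea2. Further down the order, fea2 exceeded kn1 in 3 of 6 samples, kn1 exceeded fea4 in 5 of 6 and fea4 exceeded td1 in 5 of 6. In a two-sided exact permutation test by sign flips within samples, the p was 0.0312 for ct2 over fea3, the smallest that 6 samples allow, and 0.0625 for fea3 over fea2. Adjusted over the 5 neighbouring pairs both were 0.156, and a single pair at the smallest p cannot go lower after that adjustment. For the pairs below them in the order the unadjusted exact permutation p was 0.156 to 0.406, so the order of those neighbours is left undecided.

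The meristem marker kn1 spread widely within the tml1;tml2 samples and did not pass the test between genotypes. Comparisons of one gene across samples use CPM, counts relative to the library total, scaled by edgeR's TMM factors. The gene kn1 was at 3.54, 9.22 and 14.0 CPM in MT2, MT3 and MT4, against 9.16, 4.56 and 5.21 CPM in WT2, WT3 and WT4. MT2 was the lowest and MT4 the highest of all 6 samples, and the genotypes overlapped. The range was 3.97-fold within tml1;tml2 and 2.01-fold within wild type. These values rest on 106 to 434 counts in tml1;tml2 and 137 to 267 in wild type, and the 95% Poisson intervals, which cover counting error only, were 2.90 to 4.28 CPM in MT2 and 12.8 to 15.4 CPM in MT4. The SD of kn1 within genotypes was 0.81 on the log2 scale, wider than for 86.6% of the 5681 tested genes within 2-fold of its abundance, whose median was 0.34. The mean of kn1 was 8.94 ± 5.26 CPM in tml1;tml2 and 6.31 ± 2.49 CPM in wild type (SD, n = 3 each), a log2 fold change of 0.50 (SE 0.53) that did not pass edgeR's quasi-likelihood test, with an adjusted p of 0.67. The 95% interval of the fold change ran from 0.589-fold to 3.41-fold. Without MT4 the kn1 means were 6.38 CPM in the other 2 tml1;tml2 samples and 6.31 CPM in wild type, and the log2 fold change was 0.015 with an edgeR adjusted p of 0.998.

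**Figure D1:**
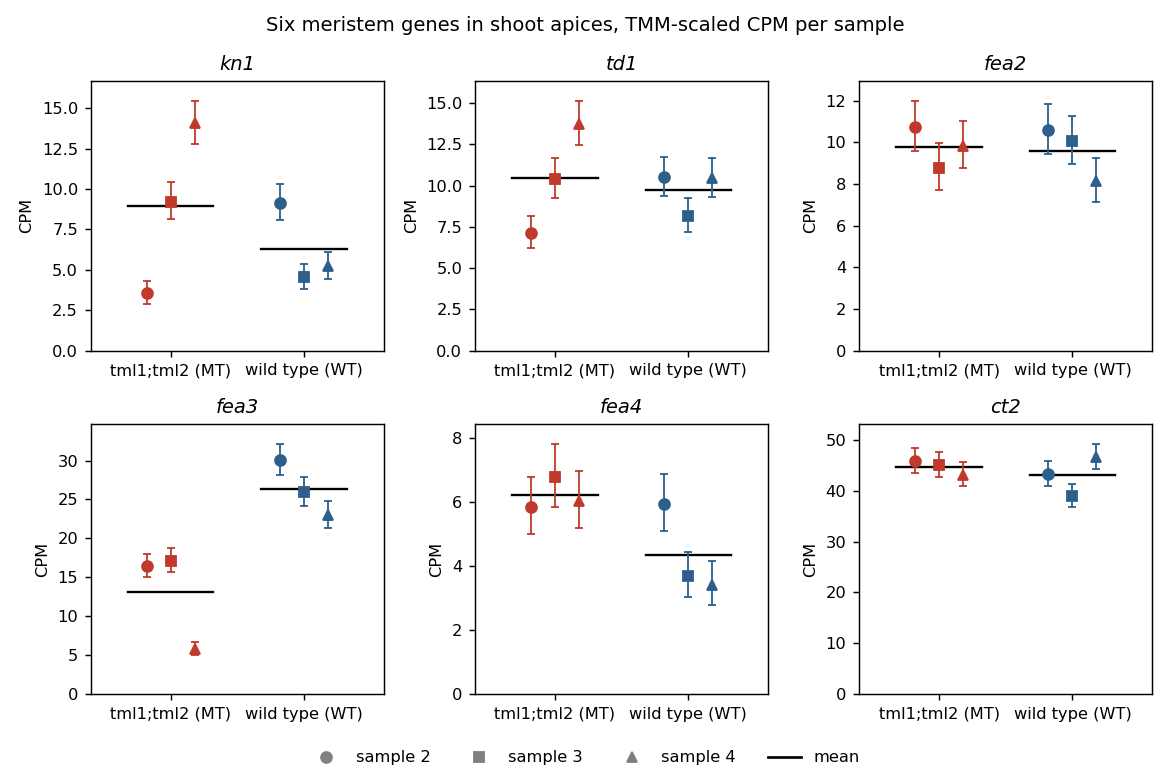
TMM-scaled CPM (vertical axes, from 0) of the 6 meristem genes in the 3 tml1;tml2 samples and the 3 wild-type samples, with one symbol per sample number. Bars are 95% Poisson intervals of the counts and the horizontal lines are group means; fea3 is the gene whose groups do not overlap, and kn1 spans 3.54 to 14.0 CPM among the tml1;tml2 samples.

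The level of kn1 set against its own mean over the 6 samples describes how the meristem marker was distributed over the samples. It was 0.464 in MT2, 1.21 in MT3 and 1.84 in MT4, against 1.20 in WT2, 0.598 in WT3 and 0.684 in WT4. A share of meristem tissue in absolute terms cannot be derived from it, since no meristem of known purity was measured in the same units and kn1 is also expressed in stem. The summed level of the 6 members was steadier, at 66.0, 72.4 and 68.8 TPM in MT2, MT3 and MT4, against 75.7, 66.9 and 61.2 TPM in WT2, WT3 and WT4. The steady gene ct2, at a mean of 31.8 TPM, was the largest part of that sum. In MT4 the highest kn1 (11.7 TPM) met the lowest fea3 (5.13 TPM), so a steady sum does not describe a steady amount of meristem. The share of that sum held by kn1 was 4.44%, 10.3% and 17.0% in MT2, MT3 and MT4, against 9.23%, 5.06% and 6.49% in WT2, WT3 and WT4.

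The receptor kinase gene td1 shared its lowest and its highest sample with kn1. It was at 7.14, 10.4 and 13.8 CPM in MT2, MT3 and MT4, against 10.5, 8.19 and 10.5 CPM in WT2, WT3 and WT4. MT2 was lowest and MT4 highest, WT4 matched WT2 in td1 although its kn1 was lower, and the genotypes overlapped. Over the 6 samples the log2 CPM of kn1 and td1 had a Pearson r of 0.92 (exact permutation p = 0.00556, two-sided) and a Spearman rho of 0.83 (exact permutation p = 0.0583). Among the 15 pairs of members this was the highest r, and it did not pass the adjustment over the 15 pairs, with an adjusted exact permutation p of 0.0833 for r and 0.875 for rho. The r was 0.93 with genotype means taken out of both genes. Without MT2 and MT4, the samples farthest from the median of kn1, it was 0.69 over the other 4, so the relation leans on those 2 samples. On log2 TPM the r was 0.96, with an adjusted exact permutation p of 0.0208 over the 15 pairs. Of the remaining pairs, td1 and fea3 had the lowest exact permutation p, 0.275 (r = −0.56, rho −0.029 with an exact permutation p of 1, and r = −0.25 without MT2 and MT4). The r of kn1 and fea3 was −0.54 (exact permutation p = 0.288) and became 0.28 without MT4. An r with kn1 at least as high as that of td1 was found for 44 of 14098 other genes with a mean of at least 10 CPM. The 2 highest of these were Zm00001d017435, with r = 0.99 over the 6 samples, and Zm00001d022373, with r = 0.98. Both were picked as the highest among 14098 genes, so the height of their r is no evidence of a relation. Zm00001d022373 ran only from 18.8 CPM in MT2 to 25.0 CPM in MT4, a narrower range than that of kn1. Neither ID is named in the sources used here.

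Between genotypes td1 averaged 10.4 ± 3.31 CPM in tml1;tml2 and 9.71 ± 1.32 CPM in wild type (SD, n = 3 each). The log2 fold change was 0.10 (SE 0.28) with an edgeR adjusted p of 0.87, and its interval allowed 0.678-fold to 1.71-fold. Its sign turned without MT4 (−0.15) and without WT3 (−0.011), so no direction is given for td1.

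**Figure D2:**
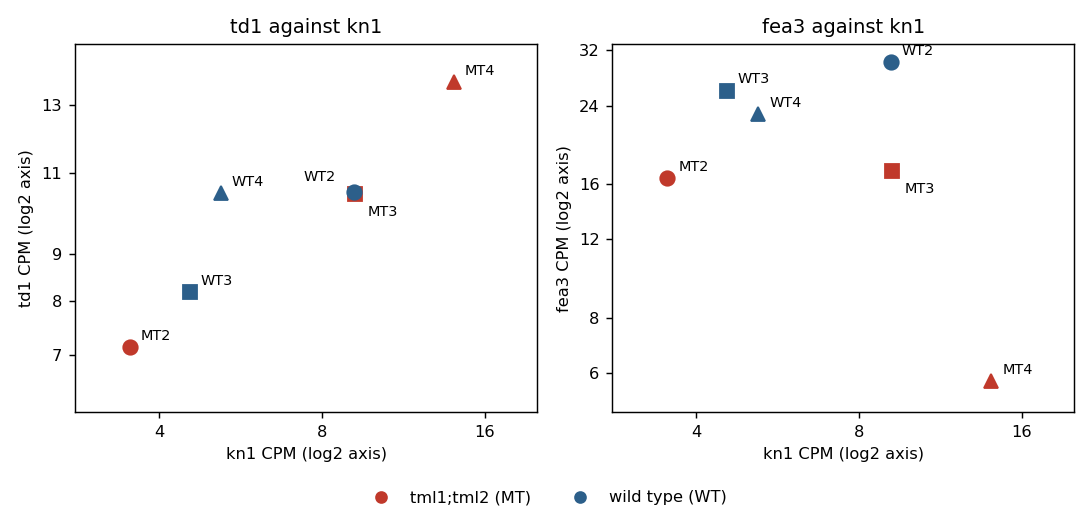
CPM of td1 (left) and fea3 (right) against CPM of kn1, both axes on a log2 scale, with one point per sample. In the left panel MT2 and MT4 mark the lower and upper ends of both genes (Pearson r = 0.92 over 6 samples); in the right panel MT4, at 5.76 CPM of fea3, lies apart from the other 5.

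The receptor-like gene fea3 was the one member whose tml1;tml2 values all lay below the wild-type values. It was at 16.5, 17.1 and 5.76 CPM in MT2, MT3 and MT4, against 30.0, 26.0 and 23.0 CPM in WT2, WT3 and WT4. MT4 was the lowest by a wide margin, with 178 counts where MT2 and MT3 had 494 and 483 and the wild types 676 to 876. Groups with tml1;tml2 entirely below wild type were found for 9.03% of all tested genes, so 1 member of 6 in that state is not read as a result about the members. The mean was 13.1 ± 6.39 CPM in tml1;tml2 and 26.3 ± 3.53 CPM in wild type (SD, n = 3 each). The log2 fold change was −1.01 (SE 0.41), or 2.01-fold lower, with a 95% interval of 1.02-fold to 3.95-fold lower. In edgeR's test its unadjusted p was 0.0452 and its adjusted p 0.41, which does not pass the threshold of 0.05. DESeq2 on the same 6 samples gave an adjusted p of 0.21.

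Without MT4 the distance in fea3 was smaller but tighter. The other 2 tml1;tml2 samples averaged 16.8 CPM, against 26.3 CPM in wild type, a log2 fold change of −0.65 (SE 0.17) with an unadjusted edgeR p of 0.0109 and an adjusted p of 0.56. DESeq2 without MT4 gave an adjusted p of 0.0718, the lowest of its fits with a sample left out, which ran up to 0.665. The unadjusted edgeR p was 0.0485 without MT2 and 0.0410 without MT3. Without WT2, WT3 and WT4 it was 0.112, 0.0757 and 0.0686, above 0.05 in each. The sign was negative in each of the 22 alternative fits run for fea3, over a range of −1.26 to −0.65. Since its groups do not overlap, leaving out a sample could hardly turn the sign. All of these fits used the same libraries. The within-genotype SD of fea3, 0.65 on the log2 scale, exceeded that of 88.5% of 7782 genes of like abundance. In the authors' deposited table of transcripts at an adjusted p of up to 0.05, fea3 is the one member listed, by transcript T001, with a log2 fold change of 1.02 (SE 0.304) and an adjusted p of 0.0112. The header of the authors' deposited table names no numerator, and 91.9% of its 7058 comparable transcripts have the opposite sign to the gene counts, so 1.02 is read as wild type over tml1;tml2. That table comes from the same libraries and lists 7216 transcripts of 6204 genes. The gene counts hold 39324 gene IDs, of which 22772, all 6 members among them, passed the expression filter. So 1 member of 6 listed is not read as a result about the members. The authors' SE of 0.304 is for a transcript, and the SEs per gene here were 0.29 from DESeq2 on 12 runs and 0.43 from DESeq2 on the 6 samples. How the authors handled the runs was not tested. Counting each of the 12 runs as a sample in DESeq2 gave fea3 a log2 fold change of −1.02 (SE 0.29) and an adjusted p of 0.0051, where 24.2% of all genes were called in the same way, and runs of one library are not separate samples.

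The other receptor-like gene, fea2, was among the steadier members. It was at 10.7, 8.79 and 9.84 CPM in MT2, MT3 and MT4, against 10.6, 10.1 and 8.14 CPM in WT2, WT3 and WT4, and the groups overlapped throughout. The log2 fold change was 0.030 (SE 0.19) with an edgeR adjusted p of 0.95, and the interval ran from 0.742-fold to 1.40-fold. Its SD within genotypes was 0.18 on the log2 scale, narrower than for most genes of like abundance, of which 17.8% had a smaller one.

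The bZIP factor gene fea4 was near 6 CPM in all tml1;tml2 samples and in 1 of the wild types. It was at 5.84, 6.77 and 6.02 CPM in MT2, MT3 and MT4, against 5.93, 3.69 and 3.41 CPM in WT2, WT3 and WT4. WT2 lay inside the tml1;tml2 range and the other wild types lay below it. The means were 6.21 ± 0.493 CPM in tml1;tml2 and 4.34 ± 1.38 CPM in wild type (SD, n = 3 each), a log2 fold change of 0.52 (SE 0.28) with an edgeR adjusted p of 0.47 and an interval of 0.893-fold to 2.29-fold. Without WT2, the sample that made the groups overlap, the log2 fold change was 0.80, with an unadjusted edgeR p of 0.0277 and an adjusted p of 0.75. With any other single sample left out it ran from 0.36 (without WT4) to 0.56 (without MT2). The unadjusted edgeR p of those fits was 0.150 to 0.293. The gene is weakly counted, at 175 to 191 counts in tml1;tml2 and 100 to 173 in wild type. In WT4 the runs held 37 and 63 counts, and run 1 alone gave a log2 fold change of 0.73 where run 2 alone gave 0.29. The r of fea4 with kn1 was 0.53 (exact permutation p = 0.293) and its rho 0.71 (exact permutation p = 0.136). That r was 0.87 without MT2 (exact permutation p of 0.56, adjusted over the 15 pairs) and 0.96 without MT2 and MT4, over the other 4 samples. Leaving out any other single sample lowered it, to between 0.42 (without WT3) and 0.51 (without WT4).

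The G protein gene ct2 was the steadiest member. It was at 45.9, 45.1 and 43.2 CPM in MT2, MT3 and MT4, against 43.4, 39.0 and 46.6 CPM in WT2, WT3 and WT4. Its SD within genotypes was 0.096 on the log2 scale, and 8.29% of the 7320 genes of like abundance had a smaller one. The log2 fold change was 0.057 (SE 0.12) with an edgeR adjusted p of 0.85, and the interval of 0.845-fold to 1.28-fold was the narrowest among the members. On the TPM scale ct2 was at 34.3, 34.6 and 33.3 in MT2, MT3 and MT4, against 30.0, 28.8 and 30.0 in WT2, WT3 and WT4, so the groups did not overlap there. On that scale 15.8% of the 21535 genes tested had all tml1;tml2 values above all wild-type values, and limma on log2(TPM + 1) placed the median gene at a log2 fold change of 0.13. The log2 fold change of ct2 in that limma fit was 0.20, with an adjusted p of 0.49, and lay 0.068 above the median gene, a distance that was not tested.

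Read as a set, 0 of the 6 members had an edgeR adjusted p under 0.05, and neither did any of the 22772 genes (0%). At an unadjusted p under 0.05 edgeR gave 1 member, fea3, and 12.2% of all genes (2784), 5.31% of all genes being lower in tml1;tml2. DESeq2 on the 6 samples called 658 genes, 2.72% of those with an adjusted p, and 0 members. The absolute log2 fold changes of the members were 0.030 to 1.01, beside a median of 0.30 over all tested genes. For kn1, fea3 and fea4 the intervals still allowed differences of at least 2-fold, while those of td1, fea2 and ct2 did not reach 2-fold in either direction.

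**Figure D3:**
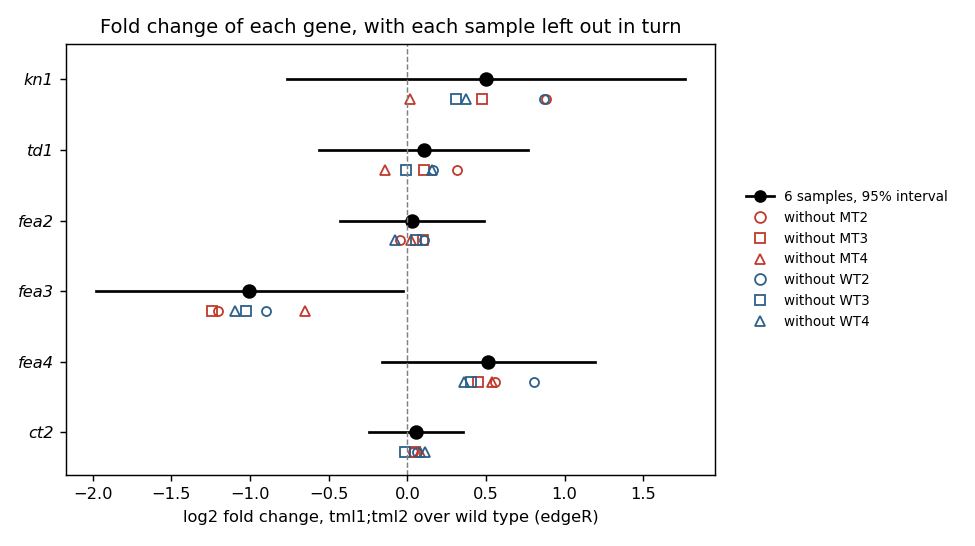
Log2 fold change of each gene, tml1;tml2 over wild type, from edgeR on 6 samples (filled points with 95% intervals) and from fits that leave out 1 sample (open symbols under each). The open symbols of fea3, whose groups do not overlap, all lie left of 0, from −1.24 to −0.65. Those of kn1 run from 0.015 without MT4 to 0.88 without MT2.

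Ratios to kn1 within a sample, which library scaling cannot move, were compared for the other 5 members. They are in CPM, without correction for length, so they compare samples and do not rank genes. Per length, td1 averaged 3.64 TPM and kn1 6.07 TPM over the 6 samples. The ratio of fea3 to kn1 in CPM was 4.66, 1.86 and 0.410 in MT2, MT3 and MT4, against 3.28, 5.69 and 4.42 in WT2, WT3 and WT4. MT2 lay within the wild-type range, and MT4 had less fea3 than kn1, also per length (5.13 against 11.7 TPM). The difference in mean log2 ratio was −1.51, tml1;tml2 minus wild type, with a two-sided exact permutation p of 0.3, where 3 samples against 3 cannot go under 0.1. It was −0.57 without MT4 and −2.32 without MT2, so its size rests on those samples. For td1 the ratio was 2.02, 1.13 and 0.979 in MT2, MT3 and MT4, against 1.15, 1.80 and 2.01 in WT2, WT3 and WT4, with a log2 difference of −0.30 (exact permutation p of 0.5) that was −0.087 without MT4 and −0.61 without MT2. The log2 differences for fea2, fea4 and ct2 were −0.32, 0.20 and −0.30, with exact permutation p-values of 0.7, 0.8 and 0.7. Adjusted over the 5 ratios, each p was 0.8.

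The average transcript length that the authors' quantification assigned to each gene bears on TPM and moved most for kn1. Over the 12 runs kn1 lay between 1067 and 1592 bases, and these extremes were the 2 runs of one sample, MT2. Those runs held 54 and 52 counts of kn1 but 3.47 and 2.40 TPM. Run 2 also had the longer value in MT3, at 1229 and 1433 bases in runs 1 and 2, and in MT4, at 1286 and 1464 bases, whereas in wild type the runs differed by less, at 1285 and 1286 bases in WT2, 1408 and 1429 in WT3 and 1192 and 1140 in WT4. For td1, fea2 and fea3 the length shifted by the same amount over the 12 runs (SD of the difference to fea3 of 0 bases), with fea3 between 1251 and 1274 bases. That shift lay between samples, with fea3 at 1251 bases in both runs of WT4 and at 1273 and 1274 bases in those of MT4. It was common to these genes and is not read as a change in any of them. Averaged over runs, kn1 had 1345 ± 26.1 bases in tml1;tml2 and 1290 ± 126 bases in wild type (SD, n = 3 each), with a limma adjusted p of 0.57. None of the 6 members passed that test, where 1 gene of 21744 did (0.0046%) and 877 genes (4.03%) had an unadjusted limma p under 0.05, with 0 members among them. The edgeR fit with length as an offset gave kn1 a log2 fold change of 0.43, with an adjusted p of 0.72.

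**Figure D4:**
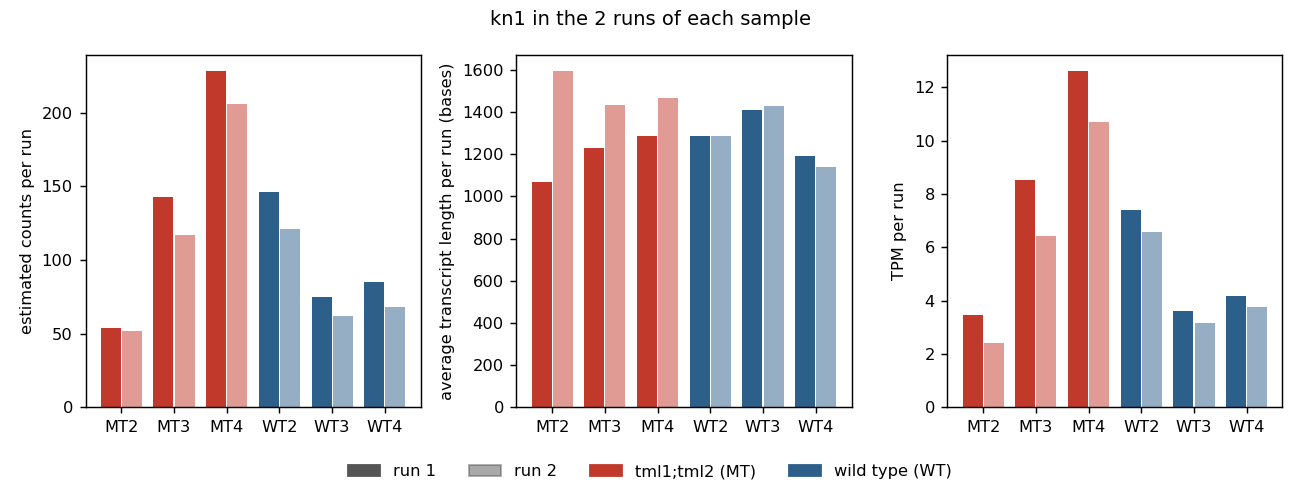
Estimated counts, average transcript length in bases and TPM of kn1 in run 1 (solid) and run 2 (pale) of each sample, all from 0. MT2 has 54 and 52 counts in its runs but average lengths of 1067 and 1592 bases, and MT4 has the highest counts and TPM in both runs.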

How the data were processed

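The authors deposited, per gene and run, estimated counts, TPM and the average transcript length in bases. Per the submitters' processing notes STAR, Salmon and DESeq2 were used; versions, build and filters are not given in the sources. The authors deposited a second table of their own comparison per transcript, which holds a mean normalized signal, a log2 fold change with its SE, a Wald score and p-values, per the file headers. Unused per-sample columns numbered 0. Groups come from the sample titles.

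For each sample the estimated counts of its 2 runs were added and then rounded. The main test was edgeR 4.0.16 (R 4.3.3), quasi-likelihood, two-sided, with TMM scaling, edgeR's expression filter and Benjamini-Hochberg adjustment over 22772 genes at a threshold of 0.05; SEs are approximate. Lengths were tested with limma 3.58.1 where a gene averaged 1 TPM or more. DESeq2 1.42.0, other scalings, filters, runs, log2(TPM + 1) and log2(TPM + 0.1), a length offset, a replicate block and leave-outs were alternatives. Intervals of levels are 95% Poisson. A floor of 3 counts is 0.0938 to 0.110 CPM. The fits were tested on simulated data with the same spread setting for all genes and no outlying sample. Power for genes as variable as kn1 and fea3 was not tested.

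The members and lists were chosen with earlier results of these data known. The named genes are all 6 members and the 2 genes with a mean of at least 10 CPM whose log2 CPM has the highest Pearson r with kn1. The reference table (49888 genes, Zm-B73-REFERENCE-NAM-5.0) lists all 6 member symbols but matched 0 IDs of the files, and no sequences were used.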

Additional observations from a re-analysis of the deposited data

How the results depend on the processing

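DESeq2 on the 12 run columns, DESeq2 with a sample left out, and the alternatives for correlations were chosen after seeing the data. The count of 0 genes by edgeR became 658 with DESeq2 on 6 samples, 1 with limma on log2(TPM + 0.1) and 5993 with DESeq2 on 12 run columns, and was 0 in the other edgeR and limma fits (0 to 0 over the edgeR leave-outs). Of the members, fea3 alone passed the threshold in any of 22 alternatives, in 1 of them (−1.02 with DESeq2 on 12 run columns). Signs of kn1, fea3 and fea4 held in all 22. For fea3 leaving out a sample could hardly turn the sign, since its groups do not overlap. Signs turned for fea2 on run 1 (−0.0026), and over the leave-outs, with edgeR and with DESeq2, for td1 (−0.15 to 0.31, with −0.020 by DESeq2 without WT3), fea2 (−0.081 to 0.10, with −0.053 by DESeq2 without MT2) and ct2 (−0.025 to 0.11). For average length, kn1 turned on run 1 (−0.12), and the leave-outs ran from −0.0057 to 0.14 for kn1, −0.016 to 0.058 for fea4 and −0.0071 to 0.036 for ct2. The log2 ratio to kn1 also turned over the leave-outs, at −0.96 to 0.10 for fea2, −0.32 to 0.65 for fea4 and −0.88 to 0.16 for ct2; without a turn it ran from −2.32 to −0.57 for fea3 and −0.61 to −0.087 for td1. The correlation of kn1 and fea3 ran from −0.78 to 0.28, with 0.28 reached without MT4. The causes of these turns were not tested. With a replicate block edgeR called 0 genes, and fea3 had a log2 fold change of −1.14 (adjusted p 0.60). The deviations from group means of samples with the same number had correlations of 0.21, −0.27 and −0.19. For pairing, 2 of 6 samples correlated best with their own number. So few samples cannot decide whether those of one number share more than the number. Counts per sample were 106 to 434 for kn1 and 100 to 191 for fea4.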
